A study of Rattus norvegicus with 11 samples.

Results

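Spinal cord of rats 6 months after a contusion injury (6M) was compared with spinal cord of sham-operated control rats collected the same number of months after their operation. The genes described are those over 1 FPKM (sequenced fragments scaled for transcript length and library depth) in at least 1 of the 5 libraries compared, which left 14314 of the 30443 genes in the tables, 13408 protein-coding and 906 long noncoding RNAs (lncRNAs). All were female Sprague-Dawley rats, given as 12 to 14 weeks of age at purchase, with the tissue collected 6 months after the operation. Controls had their vertebra opened by laminectomy with no contusion, and the injured rats received a contusion of 150 kdyn at vertebra T9, so both groups share the laminectomy. Per the study's methods, a short segment of cord at the injury epicenter was taken after perfusion with buffered saline, and a matching section in controls. Each library holds the pooled tissue of 3 rats, and the poly-A selected libraries were sequenced as 100-bp paired-end reads. There were 3 control libraries and 2 6M libraries (6M 1 and 6M 2), and a further 6M library that the authors set aside was not analysed here. A replicate is thus a pool of different rats, and p-values measure the spread between pools. The study asked how gene expression in the cord stands in the chronic phase of injury, and this comparison is its latest time point.

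A contusion kills neurons and oligodendrocytes at the site of impact, and blood-borne and resident phagocytes clear the myelin debris for a long time. Reactive astrocytes, fibroblasts and Schwann cells that enter from the nerve roots build the chronic lesion, with a glial border around a core of matrix. Cholesterol, a main lipid of myelin, is made by the mevalonate pathway under the transcription factor SREBP2, and phagocytes that take up myelin export its cholesterol through ABCA1 and APOE under the LXR receptors.

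The control libraries held 11663845, 10057646 and 19241259 counts and the 6M libraries 21430564 and 29565174. A count of 0 allows up to 3 counts, which was 0.170 to 0.350 CPM (counts scaled to a common library size after TMM normalization) in the controls and 0.0997 to 0.131 CPM at 6M, so a low gene is seen more easily at 6M. Such floors account for counting error alone. Controls 1 and 2 were processed in batch 1 and control 3 in batch 5 of the study, and both 6M libraries in batch 4, which means that injury and batch cannot be told apart. Genes that define the tissue were present in every control, with 57381, 65650.1 and 61059 CPM of the myelin gene Mbp in controls 1, 2 and 3, 2604, 2082 and 1865 CPM of the neurofilament gene Nefl and 6867, 7388 and 7349 CPM of the astrocyte gene Gfap.

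In all, 3901 genes rose and 4020 fell at 6M (adjusted p under 0.05, edgeR's quasi-likelihood test), which are 27.3% and 28.1% of the genes tested, and 6393 did not pass. A differentially expressed gene (DEG) had, by the study's thresholds, over 2-fold change at an adjusted p under 0.01. By these, 1452 protein-coding genes were higher and 1287 lower, 10.8% and 9.6% of those tested. Of the lncRNAs 80 were higher and 117 lower, 8.83% and 12.9%. Among the DEGs, 295 rose over 4-fold and 407 fell over 4-fold, and 43 rose and 47 fell over 8-fold. In 5044 genes (35.2%) both 6M libraries lay above every control, and in 4928 genes (34.4%) below every control. All 2936 DEGs were separated in this way. The median FPKM of the protein-coding genes was 6.42 in control and 8.24 at 6M, and that of the lncRNAs 1.44 and 1.75.

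The split by direction rested on the scaling between libraries. TMM placed the median gene at a log2 fold change of 0.003, and total counts moved it up by 0.21, with 2102 DEGs higher and 992 lower. Among lncRNAs, 110 DEGs were higher and 82 lower with total counts, and 194 and 142 without the FPKM filter, so their majority turned. Changes given here are relative to the TMM scale, except where another scaling is named. Values in FPKM, the medians above included, are not on the TMM scale. The 6M libraries also differed from each other. Of the 1404 lower DEGs 1171 lay farther from control in 6M 2 than in 6M 1, with medians of -1.74 and -1.26 (log2 difference from the control mean), and of the 1532 higher DEGs 1074 did, with medians of 1.48 and 1.32. Without 6M 2, 1835 DEGs were called, of which 1786 were among the 2936.

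**Figure D1:**
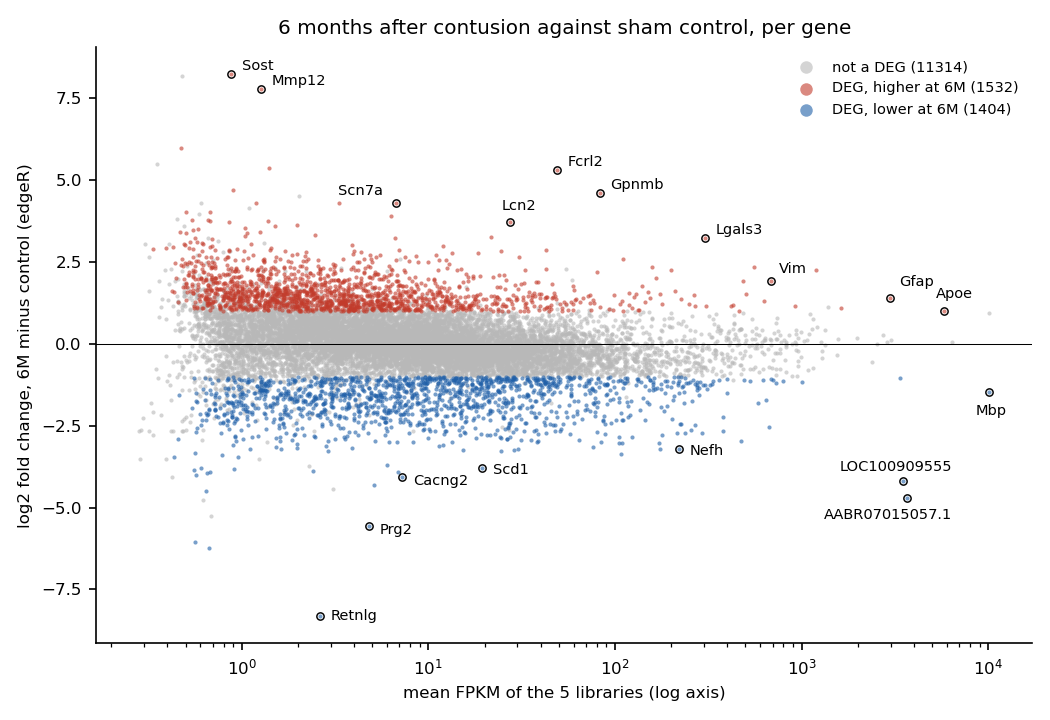
Log2 fold change of each gene at 6M against its mean FPKM over the 5 libraries, with 1532 higher DEGs in red, 1404 lower DEGs in blue and the other genes with counts in grey. The phagocyte genes Gpnmb and Lgals3 lie at 4.59 and 3.22, and the abundant genes LOC100909555 and Mbp at -4.19 and -1.47. Fitted values of genes at 0 counts in a group, such as Sost and Retnlg, depend on the prior count of the fit.

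Products of phagocytes were among the genes with the 10 highest log2 fold changes, beside Sost and 3 lncRNAs. Sost, these lncRNAs, Mmp12, Lilrb3l, Lilrb4 and Scn7a were under 1 FPKM in every control, so 6M alone brought them through the filter. Gpnmb, a membrane glycoprotein of phagocytes loaded with lipid, had 24.3, 21.5 and 25.6 CPM in controls 1, 2 and 3 and 527 and 627 CPM in 6M 1 and 6M 2. The groups lay far apart, and the log2 fold change was 4.59 ± 0.19. Fcrl2, of the Fc receptor-like family, had 4.71, 7.697 and 9.06 CPM in the controls and 274 and 296 CPM at 6M, a log2 fold change of 5.29 ± 0.23. Both 6M libraries were alike in it, far above every control. The inhibitory myeloid receptor gene Lilrb4 rose by 4.29 ± 0.23, from 2.22, 0.933 and 2.15 CPM to 37.4 and 35.6 CPM, and Lilrb3l, of the same receptor family, by 4.301 ± 0.54. Mmp12, the elastase of macrophages, had 1 count over the 3 controls and 377 counts over both 6M libraries, a ratio of 264 with a counting interval (95%) of 47.1 to 10449. Scn7a, a sodium channel family member found in glia and Schwann cells, stood at 10.2, 2.799 and 7.08 CPM in the controls and 137 and 130.1 CPM at 6M, a log2 fold change of 4.29 ± 0.42. Sost, which encodes the WNT antagonist sclerostin known from osteocytes, had 0 counts in every control and 1.22 and 1.83 CPM at 6M, at least 19.4-fold higher with 3 counts over the control group as the floor. Adjusted p was at most 0.000153 in these genes (edgeR).

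The lowest log2 fold changes were those of granule genes of leukocytes, of 2 abundant genes with no described role in the tables and of a gene of synapses. Prg2, Prg3, Retnlg, Defa5, Defa24 and Mup5 were under 1 FPKM in both 6M libraries, so the controls alone brought them through the filter. Prg2, the major basic protein of eosinophils, had 4.35, 12.8 and 12.3 CPM in the controls and 0.0875 and 0.299 CPM at 6M, a log2 fold change of -5.55 ± 0.79. Control 1 was the lowest control, and both 6M libraries lay far below it. Its homolog Prg3 had 61 counts over the controls and 1 at 6M, a ratio of 87.2 with an interval of 15.1 to 3498. Retnlg, a resistin-like gene expressed by granulocytes in mouse, had 0.7396, 2.099 and 2.04 CPM in the controls and 0 counts in both 6M libraries, at least 29.5-fold lower with 3 counts over the 6M group as the floor. The alpha-defensin gene Defa5 fell by 4.31 on the log2 scale, Defa24 was at least 6.67-fold lower, and Mup5, of the major urinary protein family, had 20 counts in control and 1 at 6M, a ratio of 28.6 with an interval of 4.57 to 1184. Cacng2, which encodes stargazin, an auxiliary subunit of AMPA receptors, had 50.4, 73.6 and 51.01 CPM in the controls and 5.91 and 1.23 CPM at 6M, a log2 fold change of -4.07 ± 0.50. The 6M libraries themselves differed in Cacng2, with 6M 2 the lower. The highest adjusted p among these genes was 0.00574 (edgeR).

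LOC100909555 and AABR07015057.1 were abundant in the controls and differed between controls as well. LOC100909555 had 7957, 20352 and 12138 CPM in controls 1, 2 and 3 and 468 and 1010.0 CPM at 6M, a log2 fold change of -4.19 ± 0.68. AABR07015057.1 had 420.3, 1149 and 852 CPM and 20.3 and 40.8 CPM, a log2 fold change of -4.72 ± 0.78 (largest adjusted p of both = 0.000679, edgeR). Control 2 was the highest control and 6M 1 the lowest library for both genes, and no 6M library reached a control. Counts of both came in a ratio between 14.2 and 24.7 in these 5 libraries. Their role is not given in the tables, and whether the same reads were divided between them was not tested.

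**Figure D2:**
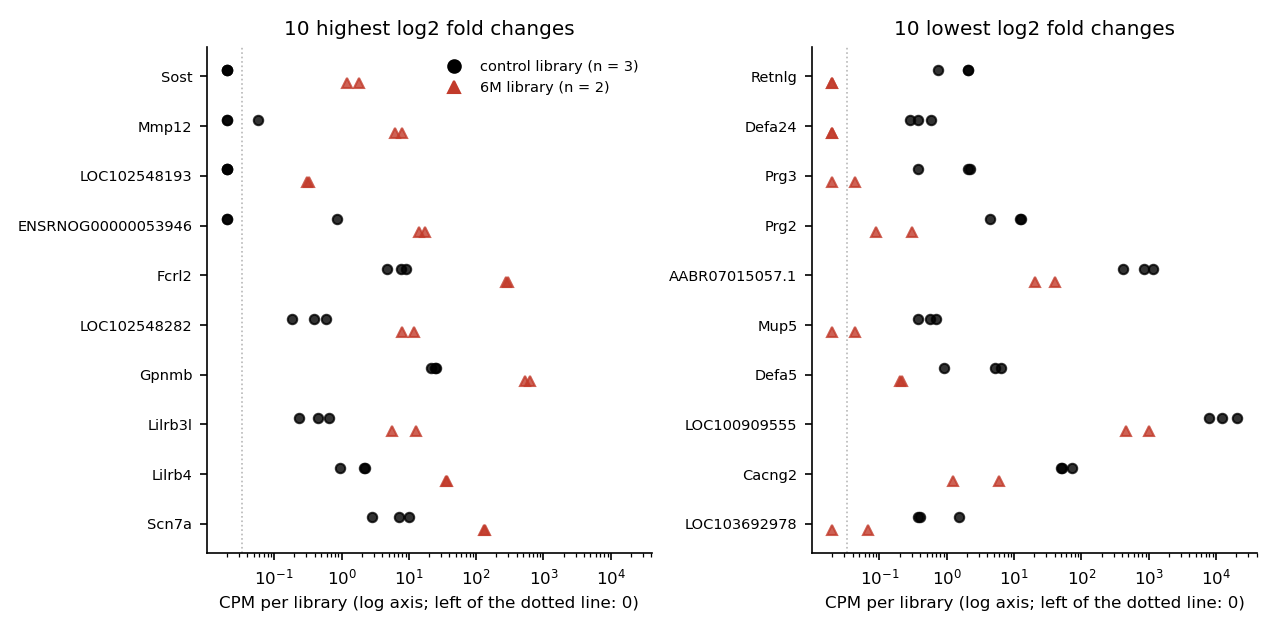
CPM in each control library (black circles, n = 3) and each 6M library (red triangles, n = 2) for the 10 highest and the 10 lowest log2 fold changes among the DEGs. The groups are apart in these 20 genes by the rule that chose them, which all 2936 DEGs met. Points left of the dotted line are libraries at 0 counts.

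Of the lncRNAs with the highest log2 fold changes, LOC102554575 was the best measured. It had 2.13, 0.583 and 1.53 CPM in the controls and 20.5 and 18.9 CPM at 6M, a log2 fold change of 3.74 ± 0.27. LOC102548282 had 0.185, 0.583 and 0.396 CPM in the controls and 11.9 and 8.04 CPM at 6M, a log2 fold change of 4.69 ± 0.38. ENSRNOG00000053946 was at 0 counts in controls 1 and 2, at 0.849 CPM in control 3 and at 14.4 and 17.2 CPM at 6M, a log2 fold change of 5.35 ± 0.61. No 6M library of these lncRNAs came near a control. LOC102548193 had 0 counts in the controls and 17 at 6M, at least 3.97-fold higher, and ENSRNOG00000052921 3 counts and 62, a ratio of 14.5 with an interval of 4.73 to 72.0. Among the lncRNAs that fell most, LOC102550370 had 5.18, 13.4 and 7.59 CPM in the controls and 0.0875 and 1.396 CPM at 6M. Its log2 fold change was -3.45 ± 0.72. LOC102546594, LOC103692978, LOC103693191 and ENSRNOG00000059315 stayed at or under 0.0997 CPM at 6M, and their controls were low too. LOC102546594 had 23 counts in control and 2 at 6M, a ratio of 16.4 with an interval of 4.06 to 144. For LOC103692978 these were 24 and 2, a ratio of 17.1 (4.26 to 149.7). For ENSRNOG00000059315 they were 13 and 2, a ratio of 9.29 (2.103 to 84.8). LOC103693191 had 0.924, 1.28 and 0.509 CPM in the controls. In FPKM, 6M 1 held 0.573 of it, above the 0.1 of control 3, so this call holds on counts alone. In edgeR's test, no adjusted p of these 10 lncRNAs exceeded 0.00849. With control 3 as the only control, LOC103693191 and ENSRNOG00000059315 were no longer called.

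Among the DEGs, the largest gains on the FPKM scale were mostly in glial genes. Genes that rose less than 2-fold were left out of this ranking, whatever their gain. Apoe, the main lipid carrier of the nervous system, had a mean of 3911 ± 1056 FPKM (SD, n = 3) in control and 8665 ± 944 FPKM (SD, n = 2) at 6M, the largest gain of all DEGs. Gfap, the intermediate filament of astrocytes, followed with 1596 ± 69.02 and 5081 ± 392 FPKM, and then the metallothionein gene Mt2A with 453 ± 42.3 and 2311 ± 581 FPKM. Other large gains were in Clu, the lipid-binding chaperone clusterin, in Vim, in Fabp7, a fatty acid binding protein of radial glia, in the small heat shock gene Hspb1, in Lgals3, the phagocyte lectin galectin-3, and in Fxyd1, a regulator of the sodium pump, at log2 fold changes of 1.09, 1.91, 1.29, 1.902, 3.22 and 1.504 from the counts. With edgeR, these 9 genes had an adjusted p of at most 0.00466.

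Among the DEGs and apart from the 2 abundant genes above, the largest losses of FPKM included myelin and neuronal genes. Mbp, a core protein of compact myelin, fell by 1.47 on the log2 scale, from 57381, 65650.1 and 61059 CPM to 21599.6 and 22588 CPM. Its FPKM is listed at 0.1, the authors' floor, in control 3, although the counts of that library were as high as in the other controls, so only its counts are used here. Uchl1, a ubiquitin hydrolase of neurons, and Stmn3, a microtubule regulator, were at -2.53 ± 0.33 and -2.97 ± 0.42, Tecr, an enzyme of fatty acid elongation, at -1.73 ± 0.18, Zwint at -1.805 ± 0.27, Aes, a transcriptional corepressor, at -1.14 ± 0.16 and Usmg5, a small subunit of ATP synthase, at -1.17 ± 0.21 (largest adjusted p of these 7 genes = 0.00103, edgeR). In FPKM, control 3 held 419.7 of Usmg5, less than either 6M library, so this call holds on counts alone.

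**Figure D3:**
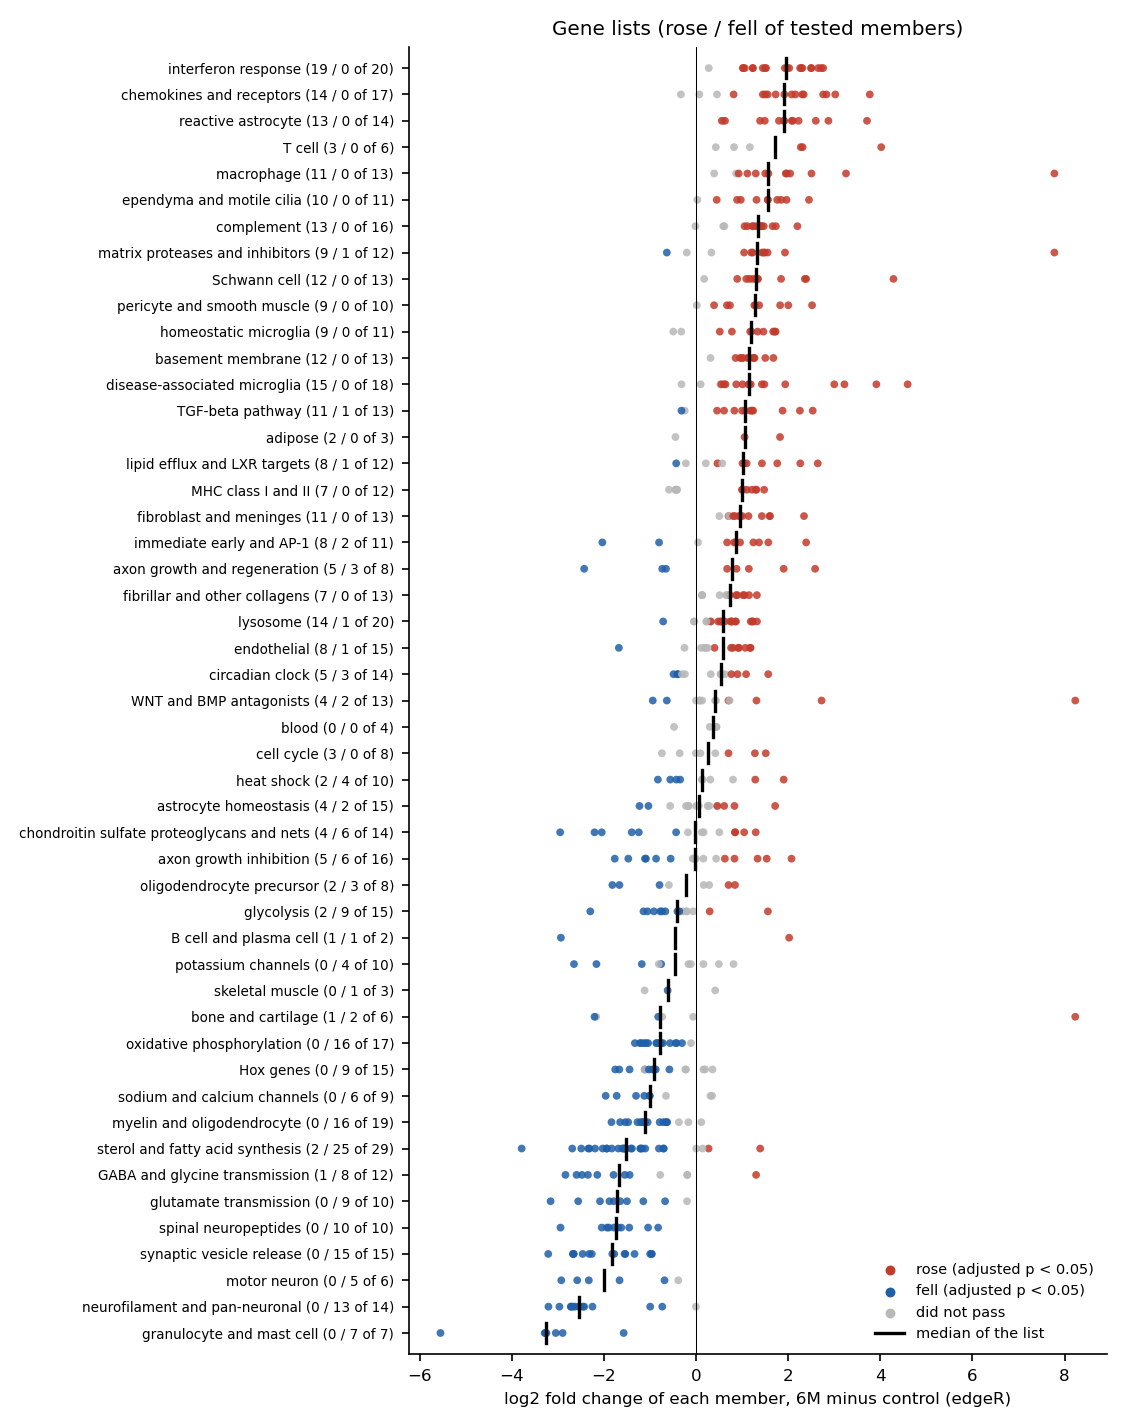
Log2 fold change of each tested member of 49 gene lists, in red where it rose, blue where it fell and grey where it did not pass, with the median of the list as a black bar. Interferon genes had the highest median (1.95) and granulocyte genes the lowest (-3.25), but neither held that rank with 6M 2 alone.

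The lists hold 722 entries, of which 595 passed the filter on FPKM, and the counts below are over those that passed. A list is read against the 27.3% and 28.1% of all genes that rose and fell.

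Genes of phagocytic microglia and macrophages were higher at 6M. Of 18 genes of disease-associated microglia 15 rose and 0 fell, with a median log2 fold change of 1.15. Clec7a, the receptor dectin-1, had 3.05, 1.05 and 3.23 CPM in the controls and 35.4 and 42.8 CPM at 6M, and Itgax, an integrin of the same cells, 0.7396, 0.6997 and 1.25 CPM and 6.43 and 8.78 CPM. The groups were separated in both, at log2 fold changes of 3.91 ± 0.25 and 3.001 ± 0.27. The lipid receptor gene Trem2 and its adaptor gene Tyrobp rose by 1.48 ± 0.20 and 1.43 ± 0.26. Spp1, osteopontin, did not pass, at -0.32 ± 0.27. Of 13 macrophage genes 11 rose, with Cd68, a lysosomal protein of phagocytes, at 3.26 ± 0.22, Adgre1, the F4/80 antigen, at 2.51 ± 0.17, the mannose receptor gene Mrc1 at 1.95 ± 0.24 and the lysozyme gene Lyz2 at 1.502 ± 0.17. Genes that mark microglia at rest rose too, in 9 of 11 cases. P2ry12, the ADP receptor of surveying microglia, had 14.4, 8.51 and 13.9 CPM in the controls and 34.6 and 33.8 CPM at 6M, a log2 fold change of 1.46 ± 0.19, and the receptor genes Cx3cr1 and Csf1r were at 1.73 ± 0.26 and 1.203 ± 0.14. Bulk tissue was sequenced, so more or fewer cells of a type and more or less RNA per cell cannot be told apart, here and in every cell type list below. Of 20 lysosomal genes 14 rose and 1 fell, with the protease gene Ctsb at 1.19 ± 0.14, progranulin (Grn) at 1.32 ± 0.17 and acid glucosidase (Gaa) at -0.72 ± 0.17. Adjusted p was at most 0.00479 in the called genes (edgeR).

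Lipid export and lipid synthesis moved in opposite directions. Of 12 genes of lipid efflux and LXR targets 8 rose and 1 fell, with a median of 1.03, and 0 fell without control 1 or without 6M 2. Abca1, the cholesterol exporter, had 30.97, 36.5 and 37.1 CPM in controls 1, 2 and 3 and 233 and 202 CPM at 6M, a log2 fold change of 2.64 ± 0.12. Soat1, which esterifies cholesterol for storage, rose by 2.26 ± 0.26, the phospholipid transfer protein gene Pltp by 1.76 ± 0.13 and Nr1h3, which encodes LXR alpha, by 1.098 ± 0.17. Of 29 genes of sterol and fatty acid synthesis 25 fell and 2 rose, with a median of -1.53. Scd1, the stearoyl-CoA desaturase, had 312, 267 and 270.0 CPM in the controls and 17.9 and 23.04 CPM at 6M, a log2 fold change of -3.79 ± 0.31. The controls lay far above both 6M libraries. Hmgcs1, which makes the precursor of mevalonate, had 1014, 930.1 and 957 CPM and 173 and 209 CPM, a log2 fold change of -2.34 ± 0.17. The lanosterol demethylase gene Cyp51 was at -2.19 ± 0.12, fatty acid synthase (Fasn) at -1.104 ± 0.11 and Srebf2, which encodes SREBP2, at -0.81 ± 0.10. The exceptions that rose were Srebf1, which encodes SREBP1 and is an LXR target, from 148, 160.4 and 143 CPM to 375 and 413 CPM (1.39 ± 0.10), and the desaturase gene Fads1 at 0.27 ± 0.073, whose call was lost in a fit of the 5 libraries alone and without 6M 1. The highest adjusted p among these genes was 0.00966 (edgeR). The fall of sterol genes was alike in both 6M libraries, with medians of -1.57 and -1.39.

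Interferon-responsive genes had the highest median of all lists, 1.95, narrowly above chemokines and receptors (1.92) and reactive astrocytes (1.91). With 6M 2 alone the interferon median was 1.72, below 2.31 for chemokines and receptors and 2.13 for reactive astrocytes. Of the 20 interferon genes 19 rose. In all 20, both 6M libraries lay above every control, which held for 35.2% of all genes. Cxcl10, a chemokine for activated T cells, had 3.61, 7.697 and 5.09 CPM in the controls and 42.7 and 30.1 CPM at 6M, a log2 fold change of 2.76 ± 0.40. Rsad2, the antiviral enzyme viperin, had 6.75, 10.03 and 7.64 CPM and 63.3 and 42.6 CPM, a log2 fold change of 2.71 ± 0.34, and Ifit3, which binds viral RNA complexes, 5.92, 3.03 and 4.19 CPM and 26.6 and 23.5 CPM, a log2 fold change of 2.502 ± 0.32. The antiviral GTPase gene Mx1 was at 2.65 ± 0.32, and the ubiquitin-like modifier gene Isg15 at 1.45 ± 0.33. Of the signalling genes, Irf7 rose by 1.52 ± 0.29, and Stat2 had 0.27 ± 0.11, which did not pass (adjusted p = 0.0532, edgeR). In edgeR's test, no adjusted p of the called genes exceeded 0.00382. In this list 6M 1 lay farther from control than 6M 2, with medians of 1.99 and 1.71.

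Promoters are shown for the 3 of these genes with the largest log2 fold changes that hold the core of the interferon-stimulated response element, the site bound by interferon-activated transcription factors. Each runs from 250 bases before to 50 bases after the start of the gene in the RefSeq annotation of the assembly GRCr8, on the strand of the gene, and the capitals mark each match to GAAANNGAA on either strand, overlapping matches included. The counts were made on another build, Rnor6, and are joined to these windows by gene symbol only. The Cxcl10 promoter lies on the plus strand at chr14:15988816-15989115, with its match beginning 243 bases before the start, that of Rsad2 on the minus strand at chr6:48788071-48788370, with its match at 146 bases, and that of Ifit3 on the plus strand at chr1:241527076-241527375, with matches at 43 and 24 bases.
Cxcl10: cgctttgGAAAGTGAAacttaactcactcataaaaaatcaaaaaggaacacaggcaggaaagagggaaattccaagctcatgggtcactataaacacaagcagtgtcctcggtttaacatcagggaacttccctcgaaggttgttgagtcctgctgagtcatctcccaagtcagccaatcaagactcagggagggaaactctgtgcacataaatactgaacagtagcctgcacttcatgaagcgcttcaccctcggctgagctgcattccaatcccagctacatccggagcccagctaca
Rsad2: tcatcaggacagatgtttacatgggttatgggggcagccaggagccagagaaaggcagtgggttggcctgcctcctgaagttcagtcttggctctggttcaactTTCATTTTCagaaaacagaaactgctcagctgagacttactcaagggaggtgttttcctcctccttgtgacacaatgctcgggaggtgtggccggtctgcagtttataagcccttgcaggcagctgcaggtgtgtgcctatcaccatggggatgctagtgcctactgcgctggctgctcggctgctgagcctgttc
Ifit3: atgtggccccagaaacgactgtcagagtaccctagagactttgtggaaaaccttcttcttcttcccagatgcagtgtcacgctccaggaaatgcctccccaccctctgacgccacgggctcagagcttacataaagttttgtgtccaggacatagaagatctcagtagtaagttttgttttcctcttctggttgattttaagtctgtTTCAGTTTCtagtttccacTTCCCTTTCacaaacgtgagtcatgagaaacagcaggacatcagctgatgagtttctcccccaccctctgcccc
Of the 20 interferon genes 13 had a window, and 8 of these (61.5%) held the motif, where 744 of 9773 tested genes with a window (7.61%) and 2820 of all 27457 genes with a window (10.3%) did. Mx1 was among the 5 without it in this window. A like search of sterol genes for a sterol regulatory element, TCACNCCAC on either strand, which shares no match with the other motif, found it in 0 of the 20 sterol genes with a window, out of 29, and in 1.25% of the tested genes and 1.25% of all genes. A match describes the letters of the window and does not show binding.

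Other branches of innate immunity were also higher. Of 16 complement genes 13 rose and 0 fell, with a median of 1.34. Serping1, the inhibitor of the C1 complex, had 94.4, 63.7 and 105 CPM in the controls and 358 and 451 CPM at 6M, a log2 fold change of 2.2 ± 0.19. The C1s protease gene was at 1.73 ± 0.20, the central component C3 at 1.42 ± 0.24 and C1qa, a chain of C1q, at 1.22 ± 0.30, whose call was lost without 6M 2. Of 17 chemokine and receptor genes 14 rose, with a median of 1.92. Ccl2, which attracts monocytes, had 0.832, 1.17 and 1.13 CPM and 5.34 and 11.7 CPM, a log2 fold change of 3.02 ± 0.35. Cxcl14 was the most abundant chemokine of the list by counts, at 93.8, 132 and 124 CPM and 554 and 625 CPM, a log2 fold change of 2.34 ± 0.16, and Ccl3 and Cxcl1, which attract monocytes and neutrophils, were at 2.83 ± 0.41 and 3.77 ± 0.79 from levels under 1 CPM in the controls. Of 12 genes of antigen presentation by MHC 7 rose and 0 fell. The light chain of MHC class I, B2m, rose by 1.01 ± 0.17 and the immunoproteasome subunit Psmb8 by 1.48 ± 0.33 (largest adjusted p among these called genes = 0.00583, edgeR). Cd74, the invariant chain of MHC class II, had 550.2, 247 and 285 CPM in the controls and 269 and 261 CPM at 6M, a log2 fold change of -0.44 ± 0.41 that did not pass (adjusted p = 0.379, edgeR). The 6M libraries were within the range of the controls for it.

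Lymphocyte markers were mostly low in every library. Of 12 T cell genes 6 passed the filter, for which a level over 1 FPKM at 6M alone was enough. Of these 3 rose, namely Cd4, which rat macrophages also carry, at 2.31 ± 0.28, Cd8b at 4.02 ± 0.56 and Cd8a at 2.27 ± 0.51 (largest adjusted p = 0.00388, edgeR). Cd8b had 0.185, 0 and 0.1698 CPM in the controls and 2.27 and 2.23 CPM at 6M. Cd3d, a chain of the T cell receptor complex, had 0.0924, 0.3499 and 0.283 CPM and 0.262 and 0.798 CPM, which overlapped, and did not pass (adjusted p = 0.264, edgeR). The call of Cd8a was lost with control 3 as the only control. Of 11 genes of B cells and plasma cells 2 passed the filter, and 1 rose and 1 fell, where 0 fell without control 3 or without either 6M library.

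Genes of granulocytes and mast cells were lower. Of 14 listed, 7 passed the filter, for which a level over 1 FPKM in the controls alone was enough, and all 7 fell, with a median of -3.25. S100a9, a calgranulin of neutrophils, had 6.19, 27.2 and 26.6 CPM in controls 1, 2 and 3 and 1.92 and 2.26 CPM at 6M, a log2 fold change of -3.25 ± 0.68. Its partner S100a8 was at -3.27 ± 0.70, the cathelicidin gene Camp at -3.29 ± 0.71 and myeloperoxidase (Mpo) at -2.898 ± 0.72, whose call was lost without 6M 2 (highest adjusted p of these 4 genes = 0.00634, edgeR). Control 1 was the lowest control in each of them, and the summed FPKM of the 7 genes was 34.5, 96.7 and 104 in the controls and 8.68 and 9.60 at 6M. Blood was measured alongside by 4 erythroid genes, of which 0 passed, with a summed FPKM of 749, 2125 and 2016 in the controls and 1447 and 3664 at 6M. Of 6 bone and cartilage genes 1 rose (Sost) and 2 fell, with a summed FPKM of 17.3 to 41.9 in the controls and 16.7 and 24.0 at 6M, and of 3 skeletal muscle genes 1 fell, with a summed FPKM of 3.91 to 6.08 and 3.65 to 5.34, and 0 fell without any one control or without 6M 2. Of 3 adipose genes 2 rose, and 1 rose without 6M 2. Their part in the fall of the granulocyte genes was not tested.

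Genes of reactive astrocytes were higher. Of 14 genes of reactive astrocytes 13 rose, with a median of 1.91. Lcn2, lipocalin 2, had 2.68, 6.298 and 5.15 CPM in the controls and 61.8 and 61.03 CPM at 6M, a log2 fold change of 3.71 ± 0.47. Cp, ceruloplasmin, which oxidises iron, had 77.3, 38.95 and 81.5 CPM and 465 and 505 CPM, a log2 fold change of 2.87 ± 0.25. Osmr, the oncostatin M receptor, rose by 2.598 ± 0.33, the hyaluronan receptor gene Cd44 by 2.098 ± 0.13, Vim by 1.91 ± 0.20 and Gfap by 1.39 ± 0.11. Of 15 genes of astrocyte homeostasis 4 rose and 2 fell, with a median of 0.06, shares no higher than those of all genes, and 1 fell without control 1, control 3 or 6M 2. The water channel gene Aqp4 had 1573, 1415 and 1720.2 CPM in the controls and 2926 and 2666 CPM at 6M, a log2 fold change of 0.83 ± 0.17, and the bicarbonate transporter gene Slc4a4 was at 1.72 ± 0.39. The glycine transporter gene Slc6a9 fell, at -1.03 ± 0.10 (largest adjusted p of the called genes = 0.00423, edgeR), and the glutamate transporter gene Slc1a2, with 24.7, 29.97 and 24.4 CPM and 19.6 and 15.99 CPM, did not pass (adjusted p = 0.244, edgeR). Of 11 genes of ependyma and motile cilia 10 rose, with the dynein genes Dnah11 and Dnah1 at 2.45 ± 0.29 and 1.96 ± 0.19 (largest adjusted p = 0.000122, edgeR), and 8 genes of this list rose without 6M 2.

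Myelin genes of the central nervous system fell and those of Schwann cells rose. Of 19 genes of myelin and oligodendrocytes 16 fell and 0 rose, with a median of -1.11, and the medians of 6M 1 and 6M 2 were close, at -0.97 and -1.07. Mog, a protein of the myelin surface, had 701, 688 and 729 CPM in the controls and 310.3 and 274 CPM at 6M, a log2 fold change of -1.27 ± 0.11. Fa2h, which hydroxylates the fatty acids of myelin lipids, was at -1.65 ± 0.10 and Mag, a glycoprotein next to the axon, at -1.11 ± 0.11. Of 8 genes of oligodendrocyte precursors 3 fell and 2 rose, shares near those of all genes, with a median of -0.21. The lineage factors Olig1 and Olig2 fell, at -1.66 ± 0.17 and -0.79 ± 0.16, and Pdgfra, which fibroblasts share, rose by 0.705 ± 0.16. Of 13 Schwann cell genes 12 rose and 0 fell, with a median of 1.30 and 12 calls without either 6M library. Egr2, the transcription factor of peripheral myelination, had 6.66, 4.198 and 4.64 CPM in the controls and 21.96 and 32.1 CPM at 6M, a log2 fold change of 2.39 ± 0.24. The 6M libraries lay above every control. Gldn, gliomedin of peripheral nodes, was at 2.36 ± 0.28, periaxin (Prx) at 1.09 ± 0.24 and the neurotrophin receptor gene Ngfr at 1.33 ± 0.14. With edgeR, these genes had an adjusted p of at most 0.00421.

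Genes of the fibrotic and vascular parts of the lesion were mostly higher. Of 13 basement membrane genes 12 rose, with a median of 1.15. Col18a1, the collagen of endostatin, had 47.8, 41.4 and 49.6 CPM in the controls and 128 and 168 CPM at 6M, a log2 fold change of 1.68 ± 0.13, and the laminin chains Lama5 and Lama1 were at 1.503 ± 0.12 and 1.25 ± 0.17. Of 13 other collagens 7 rose, and only 3 without 6M 2. Col1a1, the main collagen of scars, had 404, 239 and 427 CPM and 436 and 579.9 CPM, a log2 fold change of 0.51 ± 0.24 that did not pass (adjusted p = 0.0981, edgeR). Both 6M libraries still lay above every control. Col5a2 rose by 1.32 ± 0.22 and Col3a1 by 1.02 ± 0.31, the latter not without 6M 2. Of 12 matrix proteases and inhibitors 9 rose and 1 fell, with Mmp19 at 1.93 ± 0.17 and the inhibitor Timp1 at 1.49 ± 0.19. Of 13 TGF-beta pathway genes 11 rose and 1 fell, with the ligand Tgfb1 at 1.06 ± 0.16 and the receptor Tgfbr2 at 2.25 ± 0.40. Fibroblast and meningeal genes rose in 11 of 13 cases, with Igf2 at 1.601 ± 0.26, periostin (Postn) at 2.34 ± 0.48 and Ptgds, the prostaglandin D synthase of the meninges, at 0.93 ± 0.19. Adjusted p was at most 0.0168 in the called genes (edgeR).

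Contractile genes of vessel walls rose, as did most endothelial genes that passed the test. Of 10 genes of pericytes and smooth muscle 9 rose, and 6 rose without 6M 2. Myh11, the myosin of smooth muscle, had 44.2, 28.3 and 40.9 CPM in the controls and 144 and 159.9 CPM at 6M, a log2 fold change of 2.002 ± 0.16, and Acta2 and Cnn1, its contractile partners, were at 1.83 ± 0.20 and 2.52 ± 0.46. Of 15 endothelial genes 8 rose and 1 fell (2 without control 3), with VE-cadherin (Cdh5) at 1.18 ± 0.20. The exception was Mfsd2a, the lipid transporter of the blood-brain barrier, which had 69.2, 69.6 and 62.6 CPM in the controls and 24.7 and 17.4 CPM at 6M, a log2 fold change of -1.68 ± 0.19. Of the 15, the tight junction gene Cldn5 is listed at 0 counts in all 5 libraries and gave no result. Of 14 proteoglycans and their partners 4 rose, a share near that of all genes, and 6 fell, and without 6M 2 these counts were 2 and 5. The net components Hapln4 and Acan fell, at -2.95 ± 0.53 and -2.21 ± 0.42, while neurocan (Ncan) and tenascin C (Tnc) rose by 1.29 ± 0.31 and 1.04 ± 0.24, Tnc not without 6M 2. The highest adjusted p among these genes was 0.00489 (edgeR).

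Genes of neurons fell, and in each list of neuronal genes the median of 6M 2 was lower than that of 6M 1. Of 14 neurofilament and pan-neuronal genes 13 fell and 0 rose, with a median of -2.54. Nefh, which encodes the heavy neurofilament chain, had 2258, 2577 and 1637 CPM in controls 1, 2 and 3 and 383 and 84.8 CPM in 6M 1 and 6M 2, a log2 fold change of -3.21 ± 0.52. Both lay below every control, and 6M 2 was far below 6M 1. Snap25, a SNARE protein of nerve terminals, had 1992, 1796 and 1473 CPM and 450.1 and 99.1 CPM, a log2 fold change of -2.68 ± 0.49, and Nefm, Nefl and Thy1 were at -2.72 ± 0.45, -2.63 ± 0.46 and -2.71 ± 0.42. The list median was -1.96 with 6M 1 alone and -3.66 with 6M 2 alone, and 13 genes fell in either fit. Genes of motor neurons fell in 5 of 6 cases, with Chat, which makes acetylcholine, at -2.33 ± 0.44 and peripherin (Prph) at -2.93 ± 0.36. Their median was -1.995, and -1.36 with 6M 1 alone and -3.11 with 6M 2 alone. In edgeR's test, no adjusted p of these genes exceeded 0.00142.

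Synaptic genes followed the same course. Of 15 genes of synaptic vesicle release 15 fell, with a median of -1.82, at -1.39 with 6M 1 alone and -2.55 with 6M 2 alone. Cplx1, complexin 1, had 973, 983 and 799.6 CPM in the controls and 165 and 34.01 CPM at 6M, a log2 fold change of -3.21 ± 0.53, and synaptophysin (Syp) and synapsin 1 (Syn1) were at -2.32 ± 0.38 and -2.26 ± 0.36. Inhibitory transmission had 8 of 12 genes lower and 1 higher, and 9 and 0 without 6M 1. Slc32a1, the vesicular transporter of GABA and glycine, had 150.1, 144 and 115 CPM and 35.6 and 9.77 CPM, a log2 fold change of -2.596 ± 0.44, and Gad1, which makes GABA, was at -1.79 ± 0.35. Of 10 genes of glutamate transmission 9 fell, and 7 fell without 6M 2, with the vesicular transporter gene Slc17a6 at -2.09 ± 0.41 and the NMDA receptor subunit Grin1 at -2.56 ± 0.41. Potassium channels fell in only 4 of 10 cases, with a median of -0.46. That median was -0.13 with 6M 1 alone and -1.12 with 6M 2 alone, and Kcnc1 of fast-spiking neurons was at -2.16 ± 0.49. Sodium and calcium channels fell in 6 of 9 cases, with Scn4b at -1.96 ± 0.26. Spinal neuropeptides fell in 10 of 10 cases, from -2.94 ± 0.49 for cholecystokinin (Cck) to -0.82 ± 0.17 for prepronociceptin (Pnoc), with somatostatin (Sst) and enkephalin (Penk) at -1.897 ± 0.34 and -1.78 ± 0.32. With edgeR, these genes had an adjusted p of at most 0.00411.

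**Figure D4:**
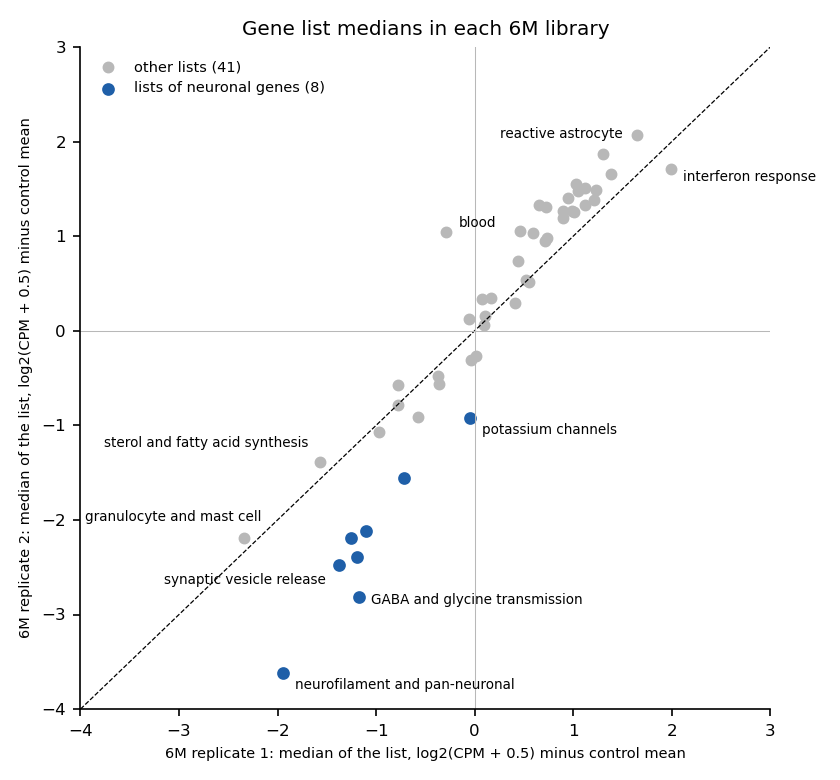
Median log2 difference from the control mean over the members of each of the 49 gene lists, in 6M 1 (x axis) and 6M 2 (y axis), with the line of equal values dashed. The 8 lists of neuronal genes (blue) lie below the line, the interferon list also lies below it, at 1.99 and 1.71, and reactive astrocyte genes lie above it, at 1.65 and 2.06.

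Among DEGs with a mean over 1 CPM, the widest gaps between the 6M libraries were in Syt2, Slc6a5, Ina, Slc7a10 and Cabp7. Syt2, the calcium sensor of fast synapses, had 89.3, 76.7 and 60.4 CPM in the controls and 20.9 and 3.32 CPM in 6M 1 and 6M 2. The glycine transporter gene Slc6a5 had 193, 123 and 122 CPM and 44.2 and 8.58 CPM, and the internexin gene Ina 322, 283 and 228 CPM and 79.6 and 15.4 CPM. In each the lower library was 6M 2. Slc7a10, an amino acid transporter, and Cabp7, a calcium-binding protein, had 24.01 and 4.16 CPM and 27.7 and 4.92 CPM at 6M. The log2 fold changes of the 5 genes lay between -2.48 and -3.01 (largest adjusted p = 0.00321, edgeR).

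Of 8 genes of axon growth and regeneration 5 rose and 3 fell, and 3 rose without 6M 2. Atf3, a transcription factor of injured neurons and other stressed cells, had 3.14, 4.198 and 4.19 CPM in the controls and 17.3 and 28.9 CPM at 6M, a log2 fold change of 2.58 ± 0.24, and Gap43, of growing axons, was at -0.73 ± 0.16. Of 16 genes of axon growth inhibition 5 rose and 6 fell, shares near those of all genes. Sema4d, a semaphorin of oligodendrocytes, had 649, 675 and 691 CPM and 196 and 199 CPM, a log2 fold change of -1.77 ± 0.10, while Sema3a, a secreted semaphorin, rose by 2.07 ± 0.51. Of 13 WNT and BMP antagonists 4 rose and 2 fell, also near or under those shares, with Sostdc1, a relative of Sost, at 2.72 ± 0.26, Sfrp1 at 1.31 ± 0.27 and Wif1 at -0.94 ± 0.19. Of 15 Hox genes, which keep the position of a segment along the cord, 9 fell and 0 rose, with Hoxb8 at -1.76 ± 0.23 and Hoxa7 at -1.02 ± 0.16. With total counts 2 rose and 6 fell. Adjusted p was at most 0.00596 in these genes (edgeR).

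Genes of energy supply were lower. Of 17 genes of oxidative phosphorylation 16 fell and 0 rose, with a median of -0.79. Cox5a, of cytochrome oxidase, had 254, 461 and 283 CPM in the controls and 152 and 134 CPM at 6M, a log2 fold change of -1.22 ± 0.24, and Atp5b, of ATP synthase, was at -0.76 ± 0.12. Of 15 glycolysis genes 9 fell and 2 rose (1 without control 1, control 3 or 6M 2), with Gapdh at -0.74 ± 0.14 and the hexokinase gene Hk2 at 1.56 ± 0.11. Immediate early genes rose in 8 of 11 cases and fell in 2, with Fos at 1.57 ± 0.27 and the synaptic gene Arc at -2.03 ± 0.34, and without 6M 2 5 rose, while 1 fell without control 2 or 6M 1. Of 10 heat shock genes 2 rose and 4 fell, where 2 fell without 6M 2 and 5 rose and 2 fell with total counts, with the small heat shock gene Hspb8 at 1.28 ± 0.12. Of 8 cell cycle genes 3 rose, with Aurkb, a mitotic kinase, at 1.51 ± 0.37, whose call was lost with control 3 as the only control. Of 14 circadian clock genes 5 rose and 3 fell, where 8 rose and 0 fell with total counts, 5 and 0 without 6M 2 and 3 and 4 without 6M 1. Nr1d1, the clock repressor REV-ERB alpha, had 44.8, 38.8 and 43.3 CPM and 119 and 132 CPM, a log2 fold change of 1.57 ± 0.20, and Per3 was at 1.09 ± 0.17 (highest adjusted p among them = 0.00573, edgeR). In the main fit 35.7% of the clock genes rose and 21.4% fell, shares near those of all genes. The share of cell cycle genes that rose, 37.5%, was also not far from that of all genes. The time of day at collection was not used here.

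Some abundant genes lay close to control. In 2966 genes a nominal 95% interval of the log2 fold change stayed within 0.5 of 0, and 2712 of these did not pass the test. These intervals take a normal quantile with the standard error and are narrower than the test's degrees of freedom would give. Aldoc, reaching -0.47, lay near the limit. The most abundant included S100b, a calcium-binding protein of glia, with an interval of -0.21 to 0.30, transferrin (Tf) with -0.25 to 0.18, aldolase C (Aldoc) with -0.47 to 0.03, the ribosomal protein gene Rpl13a with -0.34 to 0.44 and the tetraspanin gene Cd81 with -0.21 to 0.18. Cd81 had 1516, 1643 and 1532 CPM in the controls and 1429.9 and 1667 CPM at 6M, so 6M 1 lay just below and 6M 2 just above the control range. Aldoc had 2708, 3398 and 2878 CPM in the controls and 2555 and 2588 CPM at 6M, so both 6M libraries lay below every control. With total counts Cd81 was at 0.20 and Tf at 0.18, so such values depend on the scaling.

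The 6M libraries were also set beside the earlier times of the same injury, 1 month (1M) and 3 months (3M) with 3 libraries each. No library of either time was processed in the batch of the 6M libraries, so time and batch cannot be told apart. Against 1M, 1441 genes differed (adjusted p under 0.05, edgeR), 10.1% of those tested, with 841 higher and 600 lower at 6M, and 263 did without 6M 2. Against 3M, 5 genes differed, 0.0349%, with 973 at an unadjusted p under 0.05 and 140 called by the Wald test of DESeq2, and 0 or 1 genes were called when a library of either time was left out. The 5 genes are named here because they were the only calls, after their values had been seen. Of these 4 belong to sterol metabolism. Fdft1, squalene synthase, had 52.7, 45.3 and 45.1 CPM at 3M and 86.3 and 91.2 CPM at 6M, and Msmo1, a sterol oxidase, 69.6, 71.4 and 68.3 CPM and 116 and 131 CPM. Insig1, which holds SREBP in the endoplasmic reticulum when sterols are plentiful, had 51.3, 51.2 and 42.9 CPM and 76.4 and 90.5 CPM. All were higher at 6M, at log2 differences of 0.90, 0.82 and 0.78, and still far below the controls. Srebf1 went the other way, from 716, 689 and 751 CPM at 3M to 375 and 413 CPM at 6M, a log2 difference of -0.87, and remained above the controls. Card14, a scaffold protein of NF-kappaB signalling known from human skin, had 8.14, 5.71 and 8.55 CPM in the controls, 90.2, 78.2 and 91.4 CPM at 3M and 36.3 and 41.3 CPM at 6M, a log2 difference between times of -1.16 (adjusted p of the 5 genes from 0.0132 to 0.0405, edgeR).

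**Figure D5:**
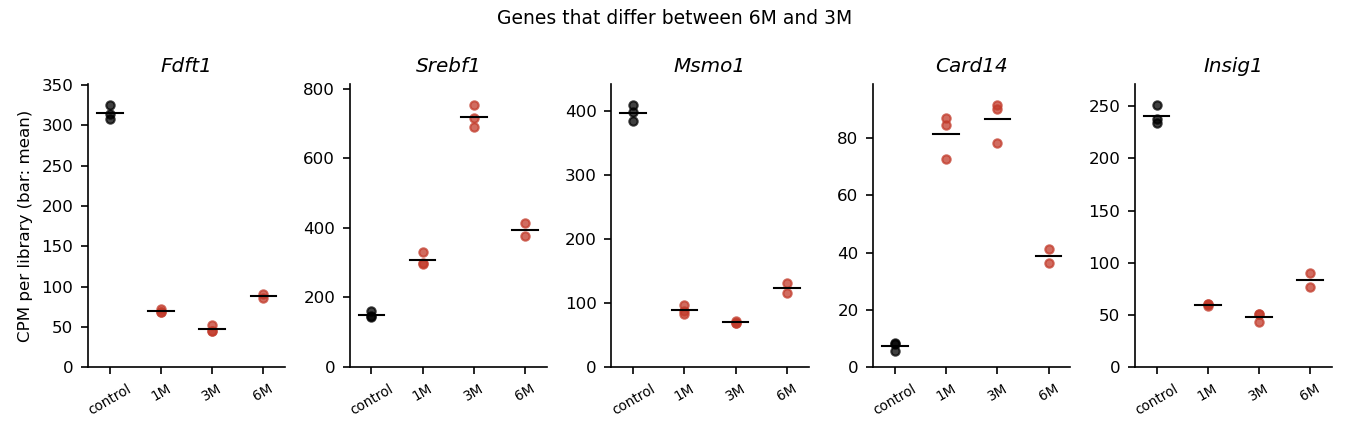
CPM of the 5 genes that differed between 6M and 3M in every library of control, 1M and 3M (n = 3 each) and 6M (n = 2), with the mean of each group as a bar. At 6M each gene lies between its 3M and control levels.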

How the data were processed

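RNA of pooled rat spinal cord was sequenced as described above, from libraries with RIN over 8. The authors used CASAVA 1.7, aligned with TopHat2 2.1.0 against the Rnor6 assembly, and deposited counts per gene from HTSeq and FPKM from Cufflinks 2.2.1, floored at 0.1, per the submitters' processing notes and the study's methods. The version of HTSeq is not given in the sources used here, nor is whether it used strand, so reads of a gene and of an overlapping or antisense gene may be shared.

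Counts were fitted with edgeR 4.0.16 in R 4.3.3 (TMM scaling, robust quasi-likelihood test, condition as the only term) over all 11 libraries, which share 1 estimate of the spread, for genes passing the FPKM filter. Benjamini-Hochberg adjustment ran over the 14314 genes tested. DEGs passed an adjusted p of 0.01 with over 2-fold change, and list members and other single genes passed at 0.05. The standard error is that of the log2 fold change, derived from the F statistic. Depth was 10057646 to 29565174 counts per library. Genes at 0 counts in a group are given as bounds from 3 counts over the group, and genes with 1 to 3 counts as ratios with 95% counting intervals. Of the tested genes 64 hold 0 counts in all 5 libraries and could gain no result. Genes named are the DEGs with the 10 highest and 10 lowest log2 fold changes, from DEGs whose 6M and control libraries did not overlap in CPM. No DEG failed that rule, and the lncRNAs named next were taken by it too. Also named are the further lncRNAs among the 5 highest and lowest of that class. Others are the DEGs with the 10 largest gains and losses in FPKM and 5 abundant genes close to control. Further ones are the 5 DEGs with the widest gap between the 6M libraries, and examples of 49 gene lists. A few genes that meet these rules are not reported here. Members and lists were chosen with earlier results of these data known. Promoter windows come from RefSeq, assembly GRCr8, matched by symbol. Alternatives were other scalings, filters and thresholds, DESeq2 1.42.0, limma 3.58.1 on log2 FPKM with 1 or 0.1 added, a replicate block, the 5 libraries alone, control 3 as the only control, and each of the 5 libraries left out in turn. Leaving out 1M 1, whose total exceeds the read pairs given for it, and the alternatives for 6M against 1M and 3M were chosen after seeing the data.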

Additional observations from a re-analysis of the deposited data

Results flagged for a closer look

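The log2 fold change at 6M differed from that at 1M, by a test between the times (adjusted p under 0.05, edgeR), in 11 of the genes named above for their rank in log2 fold change or FPKM. Genes named only as examples of lists or for the comparison with 3M were not counted. It was lower at 6M for Sost (difference -2.34), Gpnmb (-1.54), Lilrb4 (-1.48), LOC102548193 (-1.49), LOC102548282 (-1.09), LOC102554575 (-1.12), AABR07015057.1 (-2.63) and Cacng2 (-1.99). It was higher for ENSRNOG00000053946 (3.00), Scn7a (1.42) and Fxyd1 (1.45). The difference was called in 7 of 7 alternatives for Sost, Gpnmb, Lilrb4, Fxyd1 and ENSRNOG00000053946, in 6 for LOC102554575, in 4 for Cacng2 and LOC102548282 and in 3 for Scn7a, AABR07015057.1 and LOC102548193. At 1M, Gpnmb had 2116, 1604 and 1298 CPM, Sost 9.42, 7.01 and 6.89 CPM, and ENSRNOG00000053946 at most 2.41 CPM. Time and batch cannot be told apart in these differences.

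Of the 64 genes at 0 counts in all 5 libraries, both 6M libraries lie above every control in FPKM in 17 and below every control in 17, and the comparisons above, which rest on counts, leave them out. Of the 17 above, 14 had a mean FPKM at 6M over 2 times the control mean. Their mean FPKM at 6M was 17.1 for AC107446.1, 7.49 for ENSRNOG00000060475, 6.22 for ENSRNOG00000052039, 5.70 for ENSRNOG00000056620, 4.33 for AABR07026596.2, 3.69 for LOC100911851, 3.18 for AABR07046763.1, 2.93 for AABR07001516.1, 1.57 for Gm9978, 1.54 for AABR07020999.1, 1.27 for Rn60_20_0047.3, 1.27 for AABR07061707.1, 1.10 for LOC103689920 and 0.862 for Lenep. Of the 17 below, LOC100363509 had a mean of 57.8 FPKM in control and 25.2 at 6M, Gm10676 14.2 and 3.68, LOC102555247 5.59 and 0.651, and ENSRNOG00000055694 4.73 and 0.767. Fth1, the most abundant of the 64, had a mean of 11146 FPKM in control and 13600 at 6M. FPKM is not on the TMM scale, and none of the 64 gained a result.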

How the results depend on the processing

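The 2 6M libraries limit every comparison, their batch holds no control, and depth limits lncRNAs and genes under about 1 CPM. Of 180 genes named with a call, 162 kept it under every alternative run on them. The median gene moved up by 0.212 (log2) with total counts, 0.135 with the upper quartile, 0.0936 without the FPKM filter, 0.0634 with filterByExpr, 0.296 with limma on log2(FPKM + 1) and 0.350 with limma on log2(FPKM + 0.1). Higher DEGs were 52.2% of the 2936, 67.9% with total counts, 63.0% with the upper quartile, 71.5% with limma and 1 added and 75.9% with limma and 0.1 added. The cause of the other changes below was not tested.

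With total counts 2102 DEGs were higher and 992 lower, and with the upper quartile 1909 and 1120. Higher and lower lncRNA DEGs numbered 194 and 142 with no FPKM filter, 178 and 151 with filterByExpr and 126 and 143 at an adjusted p under 0.05. They were 110 and 82 with total counts, 99 and 96 with the upper quartile and 60 and 43 with limma and 1 added. With the 5 libraries alone, which give fewer degrees of freedom, protein-coding DEGs were 926 higher and 746 lower and lncRNAs 27 and 44, and 1723 of these 1743 were among the 2936. With control 3 as the only control they were 828, 713, 27 and 52, of which 1560 of 1620 were shared. Limma with 1 added gave 647 lower protein-coding and 43 lower lncRNA DEGs, and 6274 genes that rose and 2267 that fell. Limma with 0.1 added gave 2590 and 812 protein-coding and 172 and 65 lncRNA DEGs, and 6279 and 2246 genes. Leaving out 1 library at a time gave 843 to 1569 higher and 895 to 1364 lower protein-coding DEGs, 37 to 92 higher and 60 to 125 lower lncRNA DEGs, and 2736 to 4007 genes that rose and 3138 to 4096 that fell, with every lowest value from the fit without 6M 2. Against 1M, 1410 genes differed with total counts, 2524 by DESeq2 and 263 (without 6M 2) to 1946 (without 6M 1) with a library left out, where without 1M 1 and 1M 2 they were 814 and 763. Against 3M, 3 differed with total counts, 140 by DESeq2 and 0 to 1 with a library left out.

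With the replicate number as a block, 1269 and 1283 protein-coding and 57 and 93 lncRNA DEGs were called, and 3553 genes rose and 3711 fell, of which 2589 of 2702 DEGs were shared. Controls and 6M libraries share only 2 numbers, in different batches, with correlations of 0.297 and 0.128 between same-numbered deviations, so the numbers were not taken as pairs.

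Among the named genes, 24 values turned direction. Cd81 was at 0.20 with total counts, 0.12 with the upper quartile, 0.079 with no FPKM filter, 0.048 with filterByExpr, 0.36 with limma under either addition, 0.037 with control 3 alone and from -0.13 (without 6M 2) to 0.081 (without 6M 1) with a library left out. Tf was at 0.18, 0.097, 0.055 and 0.024 in the first 4 of these, 0.33 with limma under either addition and from -0.086 to 0.013 with a library left out. Aldoc was at 0.14 with limma under either addition, S100b at -0.036 with control 3 alone and from -0.072 to 0.14 with a library left out, and Rpl13a from -0.14 to 0.26. Mbp was at 3.56 and 4.38 with limma on FPKM and 1 or 0.1 added, where control 3 is listed at the floor.

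Calls were lost without 6M 2 for C1qa, Col3a1, Mpo and Tnc, without 6M 1 and with the 5 libraries alone for Fads1, and with control 3 as the only control for Aurkb, Cd8a, Col3a1, ENSRNOG00000059315, Gaa, Gap43, LOC103693191, Ptgds, Slc4a4 and Tnc. With limma, Gap43, LOC103693191, Olig2 and Usmg5 lost theirs under either addition, LOC103692978 and Mpo with 1 added and Wif1 with 0.1 added.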
